A study of Mus musculus with 6 samples.

Results

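The heat shock proteins and J-domain cochaperones were followed in mouse fibroblasts with and without the chemokine CXCL3. The genes were chosen by symbol alone: protein-coding genes named Hspa, Hspb, Hspd, Hspe, Hsph or Hsp90, or Dnaja, Dnajb or Dnajc with a number. This gave 74 of the 51912 genes in the table. RNA of primary fibroblast cells from mice aged 6 weeks was sequenced, with 3 control libraries and 3 after 48 h of CXCL3, which is a secreted CXC chemokine whose known receptor is CXCR2. The labels give neither the organ of origin, the strain, the dose nor what the control cells received. They also do not say that replicates were separate cultures or animals, so p-values here measure only how these libraries vary, which may be technical.

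Chaperones of the HSP70 family bind unfolded stretches of other proteins in a cycle driven by ATP. J-domain proteins bring them substrates and start ATP hydrolysis, and HSP110 proteins act as nucleotide exchange factors. HSP90 acts later, on clients such as kinases and steroid receptors, while small heat shock proteins hold unfolded proteins without ATP. In the cytosol, heat and other stress raise some of these genes through the transcription factor HSF1, while paralogs such as Hspa8 and Hsp90ab1 are made at a steady rate. The endoplasmic reticulum (ER) has its own set, raised by the unfolded protein response, which matters in cells that secrete collagen. Mitochondria import and fold proteins with another set, Hspa9, Hspd1 and Hspe1.

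The letters through which these sets are classically controlled were looked for in the 250 bases before the start site, in RefSeq promoter windows of build GRCm38.p6, on both strands. Of the 74 members, 60 had a window. Stretches are shown for members whose levels are described later, each 5′ to 3′ on the strand of its gene, with the matched motif in capitals. The heat shock element, the site of HSF1, was searched as GAANNTTC, which reads the same on both strands, and as a longer element that contains it, GAA, 2 free bases, TTC, 2 free bases and GAA. The ER stress element was searched as CCAAT, 9 free bases and CCACG, and so contains a CCAAT box. Bases are counted back from the start site, the one before it being -1. The stretches of Hspe1, Dnajb6, Dnaja1 and Hspa5 overlap an annotated exon and are kept short, that of Hspe1 lying in an exon of Hspd1. RefSeq windows were not used for 14 members, Hsp90aa1, Hsp90ab1, Hspa8 and Hspa9 among them.
Hspa1a, chr17:34972197-34972276, minus strand: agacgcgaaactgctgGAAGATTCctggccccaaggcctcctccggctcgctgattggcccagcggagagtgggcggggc
Hspb1, chr5:135887794-135887843, plus strand: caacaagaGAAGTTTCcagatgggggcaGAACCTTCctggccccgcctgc
Dnaja1, chr4:40722333-40722362, plus strand: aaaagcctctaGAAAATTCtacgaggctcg
Hspe1, chr1:55088055-55088080, plus strand: tccgTTCTAGAACCTTCCGGAAggcc
Dnajb6, chr5:29735844-29735873, plus strand: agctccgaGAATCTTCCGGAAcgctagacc
Hspa5, chr2:34772019-34772048, plus strand: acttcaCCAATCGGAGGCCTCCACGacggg
Hsp90b1, chr10:86705520-86705559, minus strand: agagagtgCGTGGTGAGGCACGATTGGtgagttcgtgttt
Dnajc3, chr14:118937817-118937856, plus strand: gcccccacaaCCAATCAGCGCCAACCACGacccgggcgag

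Hspa1b holds the same 80 bases as Hspa1a, at chr17:34959279-34959358 on the minus strand, and the 2 genes match at 247 of the 250 bases before the start site (98.8%). GAANNTTC was found in 11 of the 60 members with a window (18.3%). Counted by window, since a gene can have several, it was in 12 of the members' 77 windows (15.6%), against 6.69% of all 32851. Among the listed stress-inducible genes, 4 of the 9 with a window held it, namely Hspa1a, Hspa1b, Hspb1 and Dnaja1. The longer element was found in 3 members (5.19% of their windows, against 0.466% of all), Hspd1, Hspe1 and Dnajb6. Hspd1 and Hspe1, the mitochondrial HSP60 and HSP10 genes, lie head to head, and their match is one shared site. The ER stress element was found in Hspa5, Hsp90b1 and Dnajc3 (3.9% of windows, against 0.113%), with 2 matches in Hsp90b1. Hspa4l, Hsph1 and Dnajb1 had no match to either spelling of the heat shock element in this window. The order TTC, 2 free bases and GAA was not searched on its own, nor were imperfect units. A match is a match of letters, not a measured binding site.

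Values are TPM, each gene's share of a library's transcripts after scaling for length. This unit keeps no library depth, so depth is unknown and no counting interval is given. Of the controls, 2 stood apart on the first principal component, which held 52.9% of the variance: control 2 at 36.6 and control 3 at 26.6. Control 1 was at -19.2, beside the CXCL3 libraries at -18.7 to -9.39. Fibroblast genes were abundant, with 9 of 10 markers at 1 TPM or more in every library and Lum below 1, as were macrophage genes, with 10 of 10. The macrophage markers summed to between 15070 and 18080 TPM in controls and between 14830 and 14920 TPM with CXCL3, mostly Lyz2. Defining T and B cell markers were below 1 TPM in every library, and so were the epithelial markers Epcam, Krt8, Krt18, Cdh1 and Krt5. Krt19, also epithelial, reached 1.05 TPM. Of the neutrophil markers, S100a8 was at 529 to 669 TPM, while S100a9, Ly6g and Elane were below 1. By these markers the chaperone values may be of a mixed culture, though the cells are labelled primary fibroblasts. Fewer cells of a type and less RNA per cell cannot be told apart here. The part of macrophages in any value was not tested.

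Chaperone transcripts were a small and steady share of the RNA. Together the 74 genes made up 0.752, 0.725 and 0.677% of TPM in controls 1, 2 and 3, and 0.741, 0.749 and 0.742% in CXCL3 libraries 1, 2 and 3, so that the groups overlapped. Hspa8, the constitutive cytosolic HSP70, and Hsp90ab1, the constitutive HSP90, held 35.1% of the members' summed TPM. A mean of at least 100 TPM was reached by 15 members, 37 lay between 10 and 100, 11 between 1 and 10 and 11 under 1. The filter of at least 1 TPM in at least 3 of 6 libraries was passed by 63 members. The other 11 were not tested. Among them Dnajb8, Dnajc5g and Hspb3 were listed at 0 in every library. Hspb9, Dnajb3, Dnajb7, Dnajb13, Dnajc5b and Dnajc22 stayed at 0.53 TPM or less. Hspa12b, an atypical HSP70 known from endothelium, was at 0.24 to 0.69 TPM, and Dnajc6, which encodes the clathrin uncoating factor auxilin, at 0.38 to 1.33 TPM.

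No chaperone gene differed between CXCL3 and control by a test across all genes. By limma on log2(TPM + 1), 0 of 63 members passed an adjusted p of 0.05, where 0.16% of all 13139 genes tested did. An unadjusted p under 0.05 was found for 4 members higher with CXCL3 (6.35%, against 5.93% of all genes tested) and 1 lower (1.59%, against 5.65%). The groups did not overlap for 11 members (17.5%, against 17.2% of all genes tested). The 3 CXCL3 libraries lay above all controls for 6 members (9.52%, against 7.92%) and below all controls for 5 (7.94%, against 9.31%). The shares of members higher with CXCL3 are close to those of all genes. The median log2 fold change was 0.030 over the members and 0.070 over all genes tested, and 37 members were positive and 26 negative (58.7% positive, against 62.3%). The count depends on control 1: without it, 16 members passed, 12 higher and 4 lower (25.4%, against 32.4% of all genes). With library weights, 5 passed, all higher (7.94%, against 11% of all genes).

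**Figure D1:**
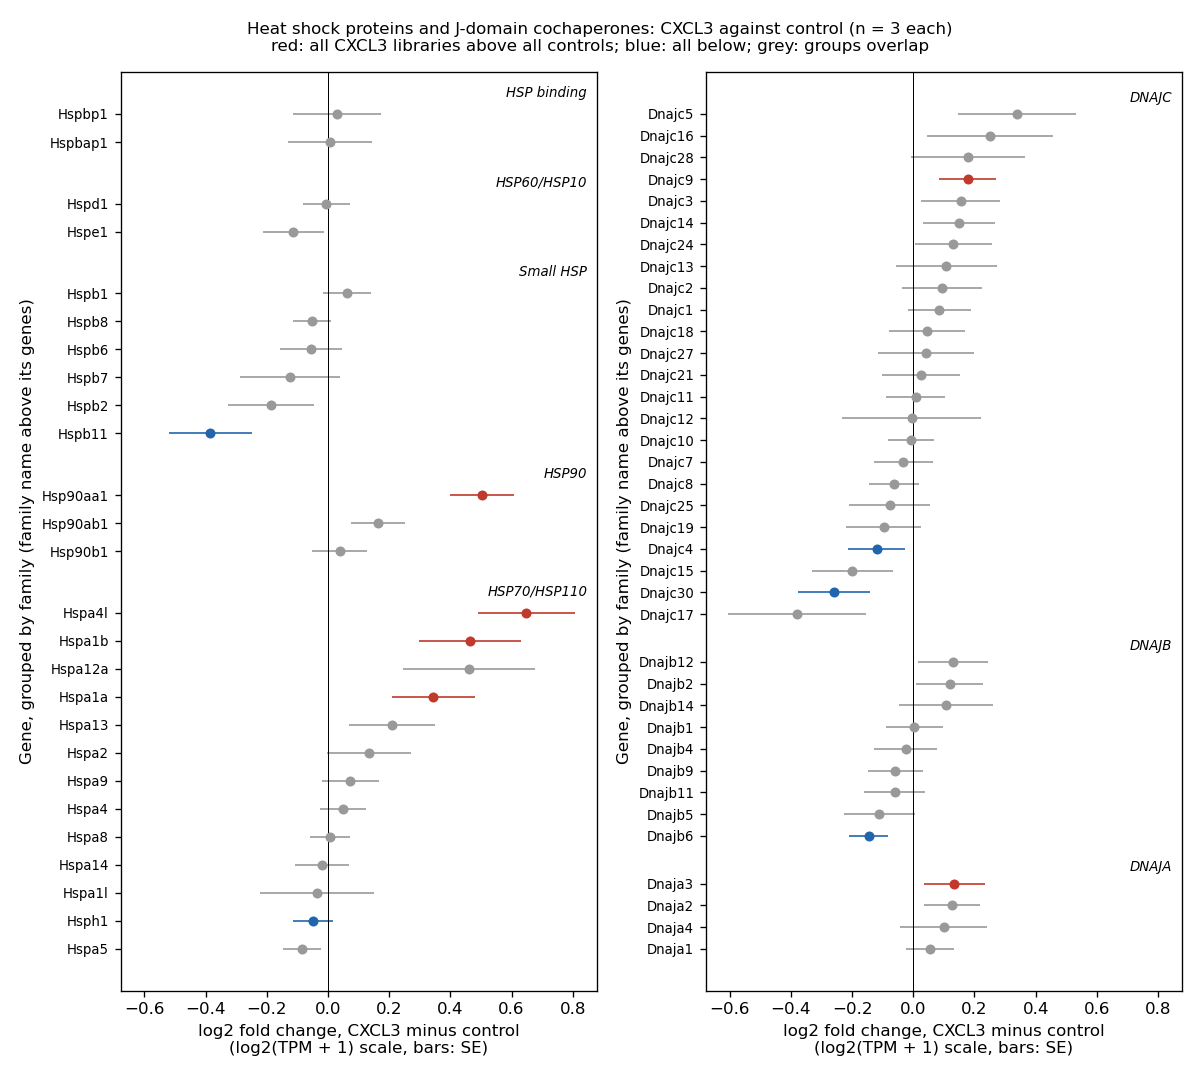
Log2 fold change of CXCL3 minus control for the 63 tested members by family, on the log2(TPM + 1) scale, with the SE as bars and n = 3 libraries in each group. Red and blue mark the 6 and 5 members whose CXCL3 libraries all lay above or below all controls, and none of the differences passed over all genes.

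The 4 members higher at an unadjusted p under 0.05 were all cytosolic genes of the stress-inducible list. They were 4 of its 10 genes, against 5.93% of all genes tested. That list was drawn up with earlier results of these data known, so the 2 shares are no test of it. Without control 2 or without control 3, 2 of the 10 had an unadjusted p under 0.05 by limma, against 8.32% and 6.66% of all genes. Hsp90aa1, the inducible cytosolic HSP90, was at 376, 323 and 281 TPM in controls 1, 2 and 3, and with CXCL3 it was at 444, 466 and 474 TPM. Every CXCL3 library lay above every control. The difference was 1.42-fold on the log2(TPM + 1) scale (log2 fold change 0.50 ± 0.10 SE, 95% interval 0.26 to 0.75; unadjusted p = 0.00156, adjusted p = 0.158 by limma). Of all genes tested it ranked 130 by p. It kept its sign in 18 of 18 alternative settings, with log2 fold changes from 0.29 to 0.61 and adjusted p from 0.00498 to 0.616. Settings that change only the filter, the eBayes trend or the replicate block leave a log2 fold change as it is. Its sign was therefore fixed in those. Against control 1 alone, the control that lay beside the CXCL3 libraries, the log2 fold change of Hsp90aa1 was 0.29. Of its runs of 50 bases, 58.5% also occur in other genes' transcripts, mostly the pseudogene Gm12346, which was at 0.12 to 0.37 TPM. Hsp90aa1 (ENSMUSG00000021270) lies on chromosome 12 of GRCm38 from 110690605 to 110702728.

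Hspa4l, an HSP110 relative that exchanges nucleotide on HSP70, was at 14.1, 9.52 and 10.7 TPM in controls and at 19.8, 19.0 and 16.1 TPM with CXCL3. The groups did not overlap, and control 1 was again the nearest to the CXCL3 libraries. It had the largest log2 fold change of the 63 tested members, 0.65 ± 0.16 (95% interval 0.28 to 1.02; limma, unadjusted p = 0.00404, adjusted p = 0.245). Its longest transcript, at 9479 bases, was the longest of the members, and with the trend of each library with length and GC content removed the value was 0.49 (adjusted p = 0.184). Hspa4l (ENSMUSG00000025757) lies on chromosome 3 from 40744495 to 40796103. Over 18 alternative settings its log2 fold change ranged from 0.35 to 0.80, with adjusted p from 0.00612 to 0.787.

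Hspa1a and Hspa1b, the classic heat-induced HSP70 genes, followed. Hspa1b was at 34.9, 22.2 and 23.4 TPM in controls and at 37.3, 37.6 and 35.0 TPM with CXCL3. Hspa1a was lower, at 15.2, 11.0 and 11.9 TPM in controls and at 15.6, 17.0 and 16.2 TPM with CXCL3. In both genes control 1 lay just below the lowest CXCL3 library, and controls 2 and 3 lay further down. The log2 fold change was 0.46 ± 0.17 for Hspa1b (limma, adjusted p = 0.376) and 0.34 ± 0.14 for Hspa1a (adjusted p = 0.416). Without control 1 these became 0.66 (limma, adjusted p = 0.00433) and 0.47 (0.00944), and against control 1 alone 0.066 and 0.091. Hspa1a and Hspa1b share 62.3% of the runs of 50 bases of Hspa1b, so how their reads were divided is uncertain. Hspa1a (ENSMUSG00000091971) spans 34969190 to 34972156 and Hspa1b (ENSMUSG00000090877) 34956436 to 34959238 on chromosome 17. Hspa1l, the neighbouring gene known from testis, was at 0.93 to 1.62 TPM.

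The other 6 stress-inducible genes had log2 fold changes between -0.053 and 0.062. Hsph1, the inducible HSP110, was at 68.5, 68.5 and 68.7 TPM in controls and 65.6, 67.2 and 66.1 TPM with CXCL3. It lay lower in every CXCL3 library, by a log2 fold change of -0.048 ± 0.065 (95% interval -0.20 to 0.10; limma, adjusted p = 0.716). Dnajb1, the main J-domain partner of inducible HSP70, was at 28.9, 25.3 and 27.8 TPM in controls and 26.9, 26.3 and 28.8 TPM with CXCL3 (log2 fold change 0.0034, 95% interval -0.21 to 0.22). Hspb1, the small heat shock protein HSP25, was at 418, 478 and 495 TPM in controls and 472, 496 and 480 TPM with CXCL3 (0.062, -0.12 to 0.24). The value of Hspb1 moved with the setting. It was 0.19 with the length and GC trend removed, where the groups did not overlap (limma, unadjusted p = 0.016, adjusted p = 0.322). Against control 1 alone it was 0.21, and without control 1 it was -0.012. Dnaja1, a J-domain partner of Hspa8, was at 180, 169 and 154 TPM in controls and 169, 170 and 183 TPM with CXCL3 (0.054, -0.13 to 0.24). In all but Hsph1 the groups overlapped. Hspb8, the partner of Bag3, and Dnajb4 had log2 fold changes of -0.053 and -0.025.

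Over the 10 inducible genes the median log2 fold change was 0.058, with 7 positive, and over the 10 constitutive cytosolic genes 0.084, with 7 positive. Hspa8 was the most abundant member, at 1557, 1536 and 1395 TPM in controls and 1491, 1515 and 1497 TPM with CXCL3. Its log2 fold change of 0.0069 had a 95% interval of -0.15 to 0.16. Hsp90ab1 was at 1078, 978 and 855 TPM in controls and 1101, 1077 and 1068 TPM with CXCL3. Control 1 lay within the CXCL3 range and the other controls below it (0.16 ± 0.09; limma, adjusted p = 0.472). Hspa4, the constitutive HSP110 relative, was at 117 to 135 TPM in controls and 129 to 133 TPM with CXCL3, with a log2 fold change of 0.050. Hspa14, which works on ribosomes together with the J-domain protein Dnajc2, and Dnajc2 itself had values of -0.020 and 0.094.

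**Figure D2:**
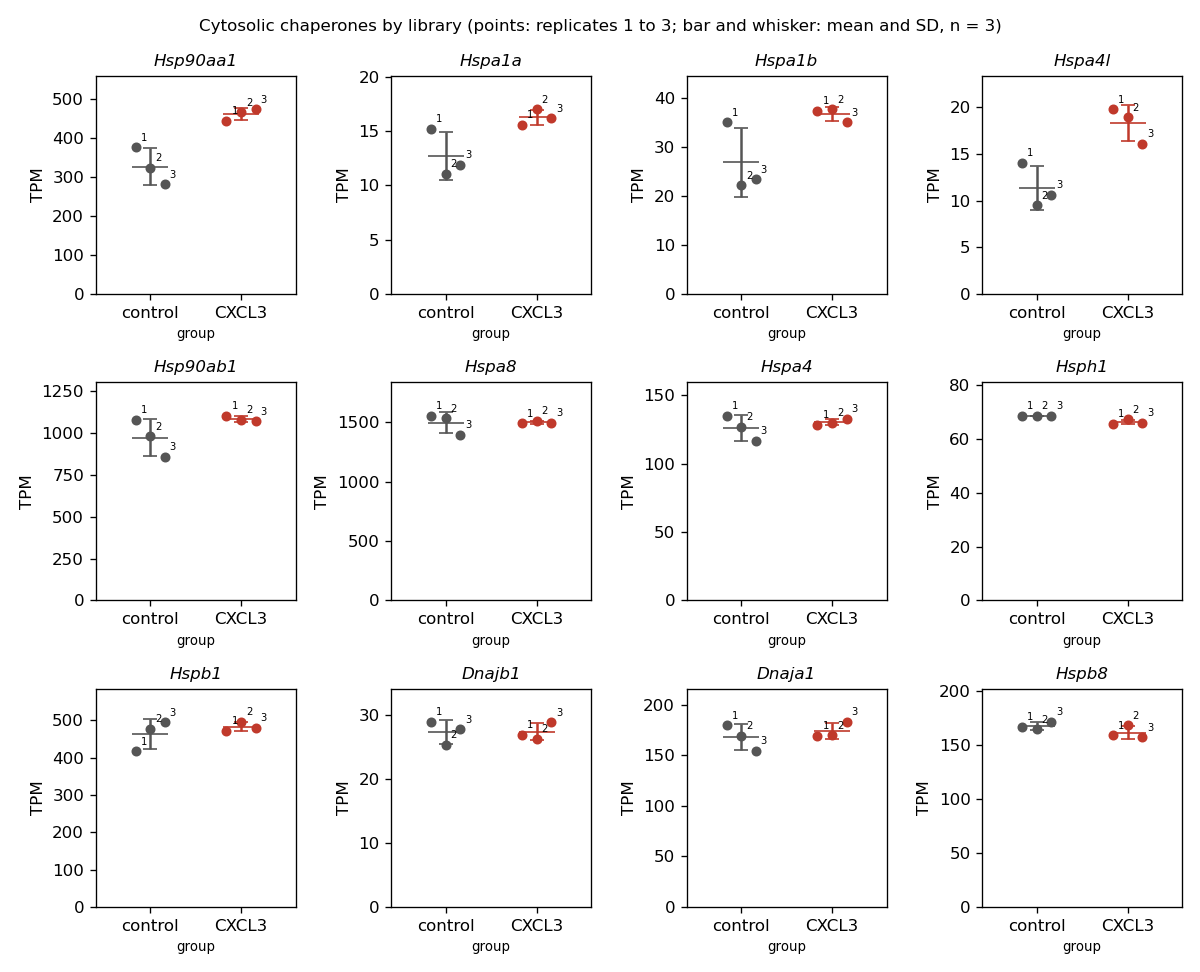
TPM of 12 cytosolic chaperones in each library, with the replicate number beside each point and the group mean and SD as bars (n = 3). Hsp90aa1, Hspa1a, Hspa1b and Hspa4l are higher in every CXCL3 library than in any control, while Hspa8, Hspa4 and Dnajb1 overlap.

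The level of an inducible gene against its constitutive paralog in the same library does not move with a common scaling. The ratio of Hsp90aa1 to Hsp90ab1 was 0.349, 0.331 and 0.329 in controls and 0.403, 0.432 and 0.444 with CXCL3, 1.27-fold higher. Controls 1, 2 and 3 lay close together in this ratio. The ratio of Hspa4l to Hspa4 was 0.104, 0.0749 and 0.0914 in controls and 0.154, 0.146 and 0.121 with CXCL3. A ratio does not remove a library's trend with transcript length where the lengths of the 2 genes differ. The longest transcript is 9479 bases for Hspa4l and 4618 for Hspa4, and no ratio was computed with that trend removed. That of Hspa1a and Hspa1b together to Hspa8 was 0.0322, 0.0216 and 0.0253 in controls and 0.0355, 0.0361 and 0.0342 with CXCL3. In these 3 ratios the groups did not overlap, which gives p = 0.1 in a two-sided exact permutation test, the smallest that 3 against 3 libraries allow. Adjusted over the 6 ratios computed, it was 0.2. The ratios were chosen after their values were seen, and the numerator genes of these 3 already had groups that did not overlap. These p-values are therefore no independent test. Another ratio of this kind, Hsph1 to Hspa4, overlapped and was lower in mean with CXCL3 (0.545 in controls and 0.508 with CXCL3, exact p = 0.3). The ratios Hsp90b1 to Hspa5 (exact p = 0.4) and Hspe1 to Hspd1 (0.6) also overlapped between groups.

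**Figure D3:**
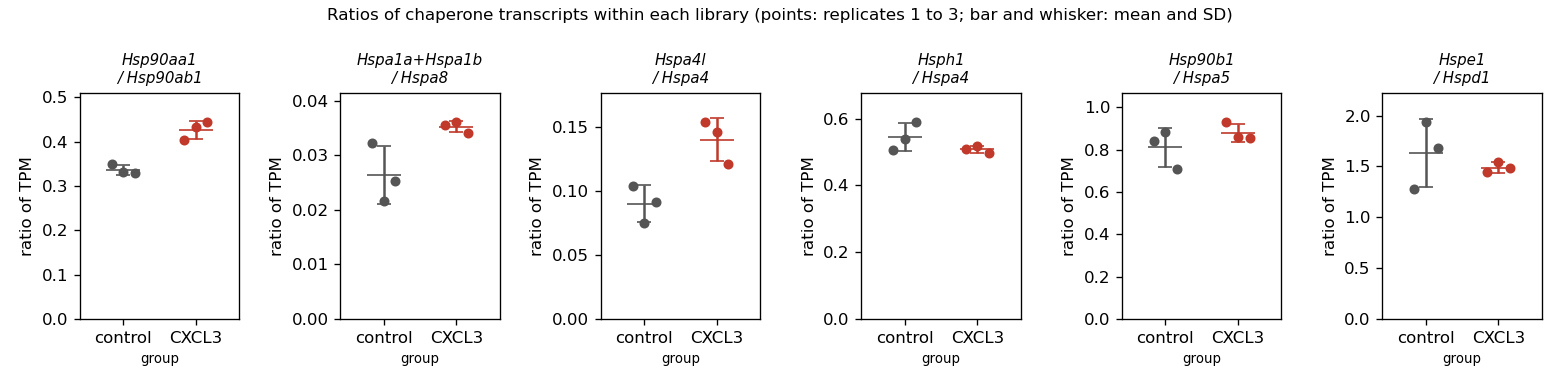
Ratio of the TPM of paired chaperone genes within each library, with group mean and SD (n = 3). The first 3 ratios are higher in every CXCL3 library and the last 3 overlap, among them Hsph1 to Hspa4, which like the first 3 sets an inducible against a constitutive cytosolic gene.

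Of the small heat shock protein genes, 6 were tested, 1 positive and 5 negative, with a median of -0.090. This lean depended on the setting. With the length and GC trend removed, Hspb1, Hspb8 and Hspb6 were positive (0.19, 0.065 and 0.040). Hspb2, Hspb7 and Hspb11 were negative there (-0.043, -0.11 and -0.27). Hspb11, named for its fold but known as a subunit of intraflagellar transport in cilia, was at 31.4, 40.3 and 33.6 TPM in controls and 27.1, 30.1 and 22.8 TPM with CXCL3. All CXCL3 libraries lay below all controls, the closest being control 1. It was the only member lower at an unadjusted p under 0.05 (log2 fold change -0.39 ± 0.14; limma, unadjusted p = 0.0231, adjusted p = 0.375), and -0.27 with the length and GC trend removed, where the groups overlapped. Hspb2, a gene head to head with Cryab that overlaps it on the opposite strand, was at 29.9, 41.3 and 32.2 TPM in controls and 29.2, 33.7 and 27.2 TPM with CXCL3. Hspb6 and Hspb7, best known from muscle, were at 15.6 to 18.2 and 1.88 to 2.89 TPM. The rule also takes in Hspbp1, which releases nucleotide from HSP70, and Hspbap1, neither of them a small heat shock protein, with log2 fold changes of 0.030 and 0.0067.

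The groups overlapped in all 13 chaperone genes of the ER, while 17.2% of all genes tested had groups that did not. None of the 13 reached an unadjusted p under 0.05 by limma, against 11.6% of all genes tested. This count depends on control 1: without it 4 of the 13 passed an adjusted p of 0.05 by limma, all higher, at 0.29 for Dnajc3 (adjusted p = 0.0232), 0.24 for Dnajb12 (0.0458), 0.48 for Dnajc16 (0.013) and 0.35 for Hspa13 (0.0221), where 32.4% of all genes passed. With library weights, 4 of the 13 had an unadjusted p under 0.05, against 33.9% of all genes. Hspa5, the ER HSP70 BiP, was at 370, 341 and 355 TPM in controls and 321, 342 and 341 TPM with CXCL3. Its log2 fold change was -0.086 ± 0.063 (95% interval -0.23 to 0.061; limma, adjusted p = 0.528), negative in 18 of 18 alternative settings, and its groups did not overlap with the length and GC trend removed (-0.094). Hsp90b1, the ER HSP90, was at 312, 300.3 and 251 TPM in controls and 298, 293 and 291 TPM with CXCL3 (0.038, -0.17 to 0.25). Dnajc3, an ER cochaperone of BiP, was at 39.3, 28.8 and 29.7 TPM in controls and 37.6, 36.6 and 34.0 TPM with CXCL3. In Dnajc3, control 1 was above all CXCL3 libraries and the other controls below them (0.15 ± 0.13, adjusted p = 0.568). Dnajb9, which holds back the stress sensor IRE1, was at 42.6, 35.7 and 39.3 TPM in controls and 37.0, 38.1 and 37.4 TPM with CXCL3 (-0.058, adjusted p = 0.753). Dnajb11, a soluble partner of BiP, and Dnajc10, a disulfide reductase, had log2 fold changes of -0.061 and -0.0077. Hspa5, Hsp90b1 and Dnajc3 all held the ER stress element shown earlier, and their values had both signs. Over the 13 ER genes the median was 0.085, and over the 6 known targets of the unfolded protein response -0.033, with 2 positive.

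None of the 9 mitochondrial chaperone genes reached an unadjusted p under 0.05 by limma, against 11.6% of all genes tested. Here too the count depends on control 1: without it 5 did, against 45.2% of all genes, and Dnajc15 (-0.35, adjusted p = 0.0113) and Dnajc30 (-0.33, 0.0341) passed the adjusted threshold. With library weights, 3 of the 9 had an unadjusted p under 0.05, Hspa9, Dnajc15 and Dnajc30, against 33.9% of all genes. Hspa9, the mitochondrial HSP70, was at 526, 457 and 411 TPM in controls and 494, 486 and 481 TPM with CXCL3 (log2 fold change 0.073, 95% interval -0.14 to 0.29). Hspd1, the HSP60 chaperonin, was at 234, 202 and 200.3 TPM in controls and 212, 211 and 209 TPM with CXCL3 (-0.0050, -0.18 to 0.17). Its cofactor Hspe1, which shares the promoter, was at 298, 391 and 336 TPM in controls and 306, 326 and 310.2 TPM with CXCL3 (-0.11, -0.35 to 0.12). In control 2 Hspd1 was near its lowest and Hspe1 at its highest, so that their ratio ran from 1.27 to 1.93 among controls and from 1.44 to 1.54 with CXCL3. The annotated transcript is 2423 bases for Hspd1 and 964 for Hspe1. Dnajc30, a J-domain protein of the inner membrane, was at 15.3, 19.2 and 16.9 TPM in controls and 13.7, 13.7 and 15.0 TPM with CXCL3. All CXCL3 libraries were lower (-0.26 ± 0.12; limma, adjusted p = 0.442). Dnaja3, the partner of Hspa9, was at 19.3 to 22.9 TPM in controls and 22.9 to 24.0 TPM with CXCL3 (0.13, adjusted p = 0.529). Dnajc15 and Dnajc19, linked to the protein import motor, were lower in mean, with log2 fold changes of -0.20 and -0.097, and their groups overlapped. Over the 9 mitochondrial genes the median was -0.0050, with 4 positive and 5 negative.

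**Figure D4:**
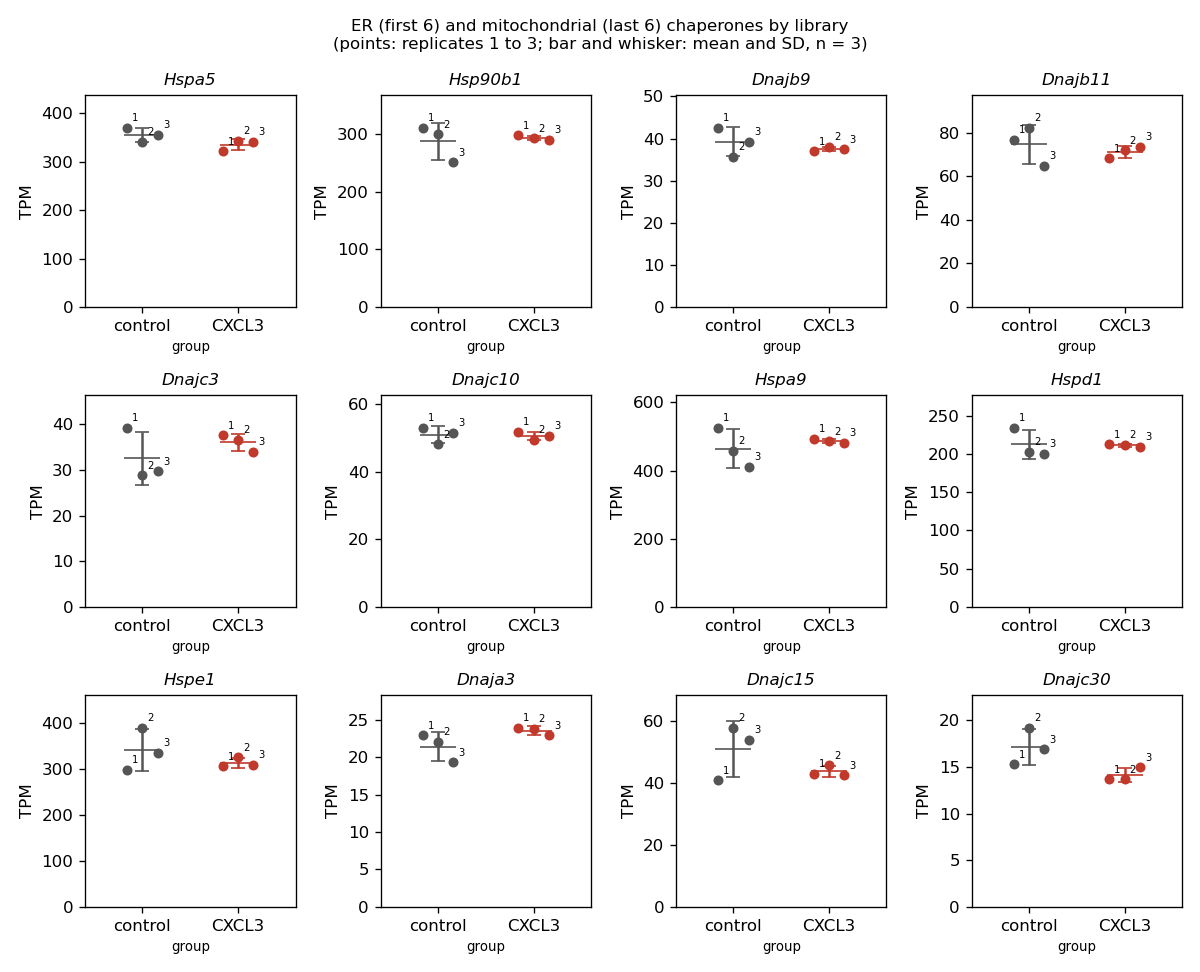
TPM of 6 ER chaperones and 6 mitochondrial chaperones in each library, with replicate numbers and the group mean and SD (n = 3). Controls spread more widely than CXCL3 libraries, and of these 12 genes only Dnaja3 (higher) and Dnajc30 (lower) have groups that do not overlap.

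The J-domain genes were tested in 4 of 4 cases for class A, 9 of 13 for class B and 24 of 28 for class C. Their median log2 fold changes were 0.11, -0.025 and 0.034. Dnajb6, which keeps aggregation-prone proteins soluble, was at 297, 289 and 274 TPM in controls and 261, 248 and 268 TPM with CXCL3. Its groups did not overlap, with a log2 fold change of -0.15 ± 0.06 (95% interval -0.30 to 0.0030; limma, adjusted p = 0.432), negative in 18 of 18 alternative settings. It holds the longer heat shock element, as do Hspd1 and Hspe1, and 35.8% of its runs of 50 bases occur in other genes. Dnajc9, a histone cochaperone, was at 21.3, 21.1 and 19.8 TPM in controls and 22.4, 25.1 and 23.2 TPM with CXCL3 (0.18 ± 0.09, adjusted p = 0.466). Dnajc17, linked to splicing, was at 15.8, 15.6 and 11.1 TPM in controls and 7.40, 13.1 and 11.9 TPM with CXCL3, a spread within each group that covered the difference (-0.38 ± 0.23). Dnajc5, the cysteine string protein of vesicles, was at 52.4, 29.4 and 34.3 TPM in controls and 49.1, 48.6 and 45.7 TPM with CXCL3. Control 1 lay above all CXCL3 libraries there and the other controls below (0.34 ± 0.19, adjusted p = 0.478). Dnajc5 passed without control 1 (0.58; limma, adjusted p = 0.00635) and with library weights (0.49, 0.0429). Outside the J-domain genes, Hspa12a, an atypical HSP70 not on the inducible list, was at 3.24, 1.65 and 1.58 TPM in controls. With CXCL3 it was at 3.48, 3.10 and 3.11 TPM, and the groups overlapped (0.46 ± 0.22; limma, adjusted p = 0.448). Without control 1 its log2 fold change was 0.69 (limma, adjusted p = 0.00986).

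The other cytosolic and nuclear J-domain genes covered a wide range of levels. Dnajc8, which is linked to splicing, was at 147, 158 and 176 TPM in controls and 148, 158 and 154 TPM with CXCL3 (-0.063). Dnaja2, a partner of Hspa8, was at 119, 101 and 98.5 TPM in controls and 116, 109 and 122 TPM with CXCL3 (0.13). Dnajc7, which also binds HSP90, was at 65.6 to 75.3 TPM in controls and 63.0 to 75.5 TPM with CXCL3 (-0.033). In these 3 abundant genes the groups overlapped. Dnajc13, a protein of endosomes, was at 34.3, 22.8 and 34.7 TPM in controls and 35.2, 31.7 and 30.8 TPM with CXCL3, with control 2 alone below the rest. Dnajc4 was at 17.1, 17.3 and 17.0 TPM in controls and 15.9, 16.2 and 15.0 TPM with CXCL3. It lay lower in every CXCL3 library, by a log2 fold change of -0.12 ± 0.09 (limma, adjusted p = 0.549). Dnajc12 was at 6.41, 12.6 and 11.7 TPM in controls, control 1 being the low one, and at 9.56 to 10.3 TPM with CXCL3 (-0.0052). Of the ER genes not yet described, Hspa13, an HSP70 of microsomes, was at 26.0, 18.1 and 19.96 TPM in controls and 24.7, 25.9 and 23.2 TPM with CXCL3 (0.21, adjusted p = 0.508). Dnajc16 was at 8.74, 4.79 and 5.24 TPM in controls and 7.37, 7.40 and 7.44 TPM with CXCL3 (0.25, 0.561). In Hspa13 and Dnajc16, as in Dnajc5, control 1 was the highest of all libraries and controls 2 and 3 were the lowest.

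Genes that work with the members but lie outside the rule were read from lists. Of 16 HSF1 targets and HSP70 and HSP90 cofactors, 0 passed over all genes by limma, 2 had an unadjusted p under 0.05 (both higher, against 5.93% of all genes tested), 10 were positive and the median was 0.027. Cryab, the small heat shock protein alpha-B crystallin, had the smallest p, at 573, 637 and 674 TPM in controls and 759, 764 and 778 TPM with CXCL3 (0.29 ± 0.07; limma, adjusted p = 0.248). Every CXCL3 library lay above every control, and control 1 was the furthest from them. St13, an HSP70 cofactor, was at 197, 136 and 145 TPM in controls and 198, 207 and 201 TPM with CXCL3. Cdc37, which brings kinases to HSP90, was at 249 to 285 TPM in controls and 295 to 306 TPM with CXCL3. Hsf1 itself was at 20.4 to 26.3 TPM in controls and 23.1 to 24.9 TPM with CXCL3 (0.016). Of 18 genes of the unfolded protein response, 0 passed over all genes by limma, and at an unadjusted p under 0.05 there were 1 higher and 4 lower, against 5.93% and 5.65% of all genes tested. In 7 of the 18 every CXCL3 library was lower, against 9.31% of all genes tested, and the median was -0.075, with 8 positive and 10 negative. The 1 higher at an unadjusted p under 0.05 was Canx, at 0.28 ± 0.12 (limma, adjusted p = 0.426), and its groups overlapped. Atf6 had the largest log2 fold change of the 18, 0.39 ± 0.18 (limma, adjusted p = 0.446), and its groups overlapped too. The list was drawn up with earlier results of these data known. Its values were read from the main fit only, so how these counts depend on transcript length, scaling or single libraries was not tested. Manf, a secreted ER stress protein, was at 183, 190.1 and 183 TPM in controls and 160.2, 139.9 and 159 TPM with CXCL3 (-0.28 ± 0.07, adjusted p = 0.266). Sil1, the exchange factor of BiP, was at 33.0, 34.6 and 30.4 TPM in controls and 24.9, 27.8 and 27.7 TPM with CXCL3 (-0.28 ± 0.09, 0.362), and Sec63, its partner at the translocon, had a log2 fold change of -0.21. Of 9 genes of mitochondrial protein quality control, 0 passed by limma and 0 had an unadjusted p under 0.05, against 11.6% of all genes tested. Their median was 0.0096. The protease gene Lonp1 had 0.29, the J-domain gene Hscb -0.24 and the disaggregase gene Clpb -0.19.

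Transcript length moved with these values. For each library, the members' differences from their 6-library means were ranked against the longest annotated transcript. Over the 63 tested members Spearman's rho was 0.38 in control 1, -0.51 in control 2 and -0.29 in control 3. In CXCL3 libraries 1, 2 and 3 it was 0.41, 0.25 and 0.24. These points share the same libraries and are no replicates. The log2 fold change of the members had a correlation of 0.41 with length, and -0.12 after each library's trend with length and GC content was removed. With that trend removed, 6 of the 10 inducible genes had groups that did not overlap, against 17.3% of all genes tested. That list was drawn up with earlier results of these data known, so the 2 shares are no test of it. Hspb1 was higher, as given earlier, and Hsph1 lower, at -0.12 (limma, adjusted p = 0.525). The other 4 were at 0.52 for Hsp90aa1, 0.49 for Hspa4l, 0.47 for Hspa1b and 0.33 for Hspa1a (limma, adjusted p = 0.164, 0.184, 0.365 and 0.388). The median SD of a member's log2 value was 0.17 among controls and 0.059 among CXCL3 libraries, and larger in controls for 50 of 63. Both patterns ran through the whole table: over all genes tested the median SD was 0.20 and 0.086, larger in controls for 10551 of 13139, and the correlation of log2 fold change with length was 0.45. The cause of the length relation was not tested.

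**Figure D5:**
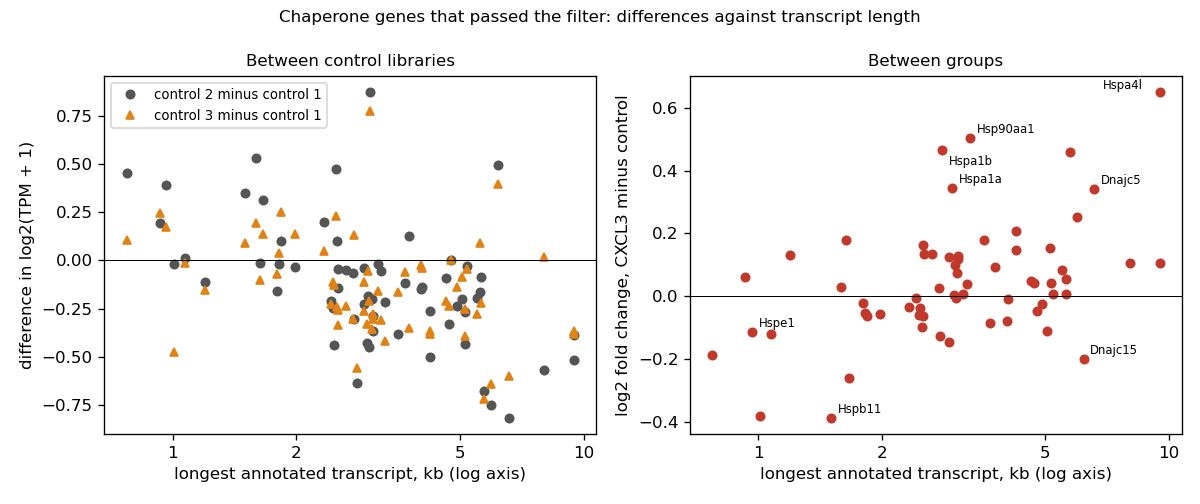
Left, difference in log2(TPM + 1) of controls 2 and 3 from control 1 for the 63 tested members against the longest annotated transcript; right, the log2 fold change of CXCL3 minus control against the same length. On the right, the long Hspa4l and Dnajc5 lie high and the short Hspb11 and Hspe1 lie low. Others go against this, such as the long Dnajc15 (-0.20) and the short Dnajc24 (0.13). Hsp90aa1, Hspa1a and Hspa1b stand above members of similar length, and the part of length in their values was not tested.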

How the data were processed

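One value per gene and library was analysed: TPM, in a single table that the authors deposited, whose columns sum to 984281 to 986705. No further sample column was present (0). Names in the submitters' processing notes are fastp, HISAT, RSEM and GRCm38.p5, without versions. Strand and annotation release: not given in the sources used here. GENCODE M21 supplied symbols for 51719 of 51912 genes. The filter, at least 1 TPM in at least 3 of 6 libraries, left 13139 genes. Their log2(TPM + 1) values were fitted by limma 3.58.1 (R 4.3.3; eBayes with trend), and two-sided p-values were adjusted by Benjamini-Hochberg over all 13139. This scale understates changes of low genes. The script was run on simulated data with known changes. There each gene had the same spread in both groups and no trend with transcript length. That run therefore cannot show how the fit does on data with these features. Alternatives covered scaling, pseudocount, filter, library weights, length and GC content, a replicate block and left-out libraries.

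Members, lists and tests were chosen with earlier results of these data known, and the ratios after their values were seen. The named members are 16 leading genes by role, any that passed, and the 6 with the smallest p in each direction, with up to 3 genes per non-member list. Other members, and Hsf1, Canx and Atf6, were named after their values were seen.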

Additional observations from a re-analysis of the deposited data

How the results depend on the processing

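Under 18 alternative settings, 24 named members gave 431 values, of which 383 kept direction and side of the threshold, 14 passed it and 34 changed sign. Hsp90aa1, Hspa4l, Hspa1a, Hspa1b, Hspb11 and Dnajb6 kept their sign in 18 of 18. In settings that change only the filter, the eBayes trend or the replicate block, a log2 fold change cannot move. The 18 of 18 and the 383 thus include values whose direction was fixed. The count of genes passing was 21 over all genes and 0 over members. Over all genes it was 1 when eBayes was run without a trend, 5 after scaling by median of ratios, 0 when no filter was used, 1446 with library weights (whose fit did not reach its tolerance), 84 without controls 2 and 3, and 0 to 4254 when 1 library was left out. The 0 came without control 3 or without CXCL3 replicate 1 or 2, and the 4254 without control 1. Members passing were 5 with library weights and 0 to 16 with 1 library left out, the 16 without control 1. Members at an unadjusted p under 0.05 were 15 with library weights (23.8%, against 33.9% of all genes), 10 without controls 2 and 3 (15.9%, against 15.5%), and 2 to 23 with 1 library left out (23 without control 1, 36.5% against 45.2%). Members whose groups did not overlap were 46 without controls 2 and 3 (73% against 64.6% of all genes), where 1 control remains and is assumed to vary like the CXCL3 group, and 11 to 33 with 1 library left out (33 without control 1, 52.4% against 60.5%).

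Same-numbered libraries did not deviate together (correlations of 0.122, -0.011 and 0.077), so the replicate numbers are not taken to pair them. With the replicate block, 12 genes and 0 members passed. With length and GC removed and the replicate block together, 32 genes passed, and 8 members had an unadjusted p under 0.05 (12.7% of members and of all genes).

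Log2 fold changes that changed sign follow. With median-of-ratios scaling they were -0.072 for Hspa8, -0.017 for Hspb1, -0.072 for Dnajb1, -0.024 for Dnaja1, -0.040 for Hsp90b1 and -0.0050 for Hspa9. With quantile normalization they were -0.054 for Dnajb1 and 0.024 for Hspd1, and with library weights 0.047 for Hspd1. With length and GC removed, with or without the replicate block, they were -0.052 for Dnaja1, 0.072 for Hspd1 and 0.022 for Hspe1. Without controls 2 and 3 they were -0.053 for Hspa8, -0.076 for Dnajb1, -0.048 for Dnaja1, -0.083 for Hsp90b1, -0.12 for Dnajc3, -0.11 for Hspa9, 0.074 for Hspe1, -0.0046 for Hspa12a and 0.097 for Dnajc15. With 1 library left out, values ran from -0.043 to 0.037 for Hspa8, -0.012 to 0.11 for Hspb1, -0.049 to 0.043 for Dnajb1, -0.0040 to 0.11 for Dnaja1, -0.056 to 0.099 for Hsp90b1, -0.12 to 0.0017 for Dnajb9, -0.011 to 0.17 for Hspa9 and -0.045 to 0.068 for Hspd1. The cause was not tested. TPM keeps no depth, so what sequencing depth limits is unknown.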
